A study of Mus musculus with 12 samples.

Results

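Oxidative phosphorylation was followed through the genes that encode the subunits of its 5 complexes. Members were the protein-coding genes whose mouse symbol names a structural subunit of complex I (Nduf), complex II (Sdh), complex III (Uqcr and Cyc1), complex IV (Cox4 to Cox8) or complex V (Atp5), together with the protein genes of the mitochondrial genome. There were 98 such genes among the 21649 protein-coding genes present in both count tables, 37 in complex I, 4 in complex II, 9 in complex III, 18 in complex IV, 17 in complex V and 13 encoded by mitochondrial DNA (mtDNA). The rule used names alone and no measured value.

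RNA was sequenced from cells sorted from the liver of C57BL/6 mouse embryos at E14.5, in 4 groups of 3 libraries. All embryos, the controls included, carried a floxed Jag1 gene (Jag1 f/f), which encodes a Notch ligand, and they lacked or carried Vav-Cre, a recombinase under a promoter active in blood cells. One sort was of hematopoietic stem cells (HSCs, gated as DAPI-CD45+Lin-cKit+Sca1+CD48-CD150+, 2000 cells per library) from littermates whose genotype labels read WT or Mutant. The other was of CD169+ macrophages (1000 to 3000 cells per library). Nothing in the labels says how many embryos stand behind a library, so p-values measure the spread between these libraries, which may be technical.

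The respiratory chain passes electrons from NADH, through complex I, or from succinate, through complex II, to coenzyme Q, and from there through complex III and cytochrome c to complex IV, where oxygen is reduced. Complexes I, III and IV pump protons across the inner mitochondrial membrane, and complex V, the ATP synthase, makes ATP as protons flow back. Nuclear genes encode most subunits, while the mitochondrial genome encodes core subunits of every complex except complex II.

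HSC libraries held 51982064 to 77463770 reads. Macrophage libraries were shallower and unequal, with 17230019 to 24658205 reads in the Cre negative group and 2602934 to 5366990 in the Cre positive group. Jag1 stood at 51.7, 20.7 and 25.9 CPM (read counts scaled to a common library size) in Cre negative and 0, 10.4 and 6.67 CPM in Cre positive macrophages, without overlap. In HSCs it stood at 6.52, 6.86 and 1.15 CPM in the controls against 10.5, 0 and 19.4 CPM under the Cre positive label, so the HSC libraries are named by their label throughout. The 10 markers of HSCs took 0.0739% to 0.205% of reads in Cre negative HSC libraries, lowest in replicate 1, and 0.128% to 0.173% in those labelled Cre positive. Each HSC library held a larger share of reads in 10 endothelial markers than in these. Taken as sums of reads this goes against the label, but such sums also depend on the lengths and levels of the genes listed. All 10 macrophage markers had reads in the macrophage sort, but the 10 endothelial markers together took a larger share of reads in each library. Csf1r, the receptor of a macrophage growth factor, stood at 79.9 to 881 CPM there. Stab2, a scavenger receptor of liver sinusoidal endothelium, stood at 2413 to 5033 CPM, which goes against the label. These levels were not divided by transcript length. The 10 endothelial markers took 0.674% to 1.43% of reads in Cre negative and 1.16% to 1.51% in Cre positive macrophage libraries, and 0.572% to 1.14% (highest in Cre negative replicate 1) and 0.573% to 0.766% in the respective HSC groups, with no marker at 0 in all 6 libraries of a sort. Cre negative macrophage replicate 1 held 0.398% of its reads in 10 hepatoblast markers, against 0.0428% to 0.0844% in the other 5 macrophage libraries, and 0.171% in 10 macrophage markers, against 0.382% and 0.389% in the other Cre negative ones. The part of such differences in the results below was not tested.

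Promoters of respiratory chain genes are known for sites of NRF1, of ETS factors such as GABP and of YY1. RefSeq promoter windows (GRCm38.p6, from 250 bases before the start of transcription to 50 after it) were matched for 66 of the 85 nuclear members. The letters CGCATGCG (NRF1 core) stood in 9 of the 66 on either strand (13.6%), against 2.07% of the windows of 27025 genes. CCGGAAG (ETS core) stood in 16 (24.2%, against 9.93%), and AAGATGGC (YY1 core) in 9 (13.6%, against 3.19%). Of the 9 members with the YY1 core, 8 held it on the coding strand after the start of transcription, at bases 23 to 39 counted from the start (12.12% of members, against 1.04% of all genes). A match is a description of letters, not a binding site. The 4 windows below are shown because Uqcrh and Ndufs7 had some of the smallest p-values in HSCs and macrophages, Cox6a1 holds the NRF1 and ETS cores together, and Atp5j holds all 3. Capitals mark the matches, whose letters do not overlap in these windows, and an ETS core on the other strand reads CTTCCGG.
Uqcrh, chr4:116075021-116075320, minus strand: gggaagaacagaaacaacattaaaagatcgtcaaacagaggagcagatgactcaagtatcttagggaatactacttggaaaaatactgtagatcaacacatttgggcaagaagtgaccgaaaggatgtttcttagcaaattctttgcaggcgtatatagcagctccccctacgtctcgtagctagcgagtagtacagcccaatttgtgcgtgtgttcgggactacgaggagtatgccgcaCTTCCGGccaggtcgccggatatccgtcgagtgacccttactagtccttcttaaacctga
Ndufs7, chr10:80249199-80249498, plus strand: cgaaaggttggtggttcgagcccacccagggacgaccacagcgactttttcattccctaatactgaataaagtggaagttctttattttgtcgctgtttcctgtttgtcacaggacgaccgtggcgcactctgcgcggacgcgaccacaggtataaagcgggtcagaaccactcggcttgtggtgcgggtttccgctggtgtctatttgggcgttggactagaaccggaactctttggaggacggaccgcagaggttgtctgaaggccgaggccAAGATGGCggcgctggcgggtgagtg
Cox6a1, chr5:115348909-115349208, minus strand: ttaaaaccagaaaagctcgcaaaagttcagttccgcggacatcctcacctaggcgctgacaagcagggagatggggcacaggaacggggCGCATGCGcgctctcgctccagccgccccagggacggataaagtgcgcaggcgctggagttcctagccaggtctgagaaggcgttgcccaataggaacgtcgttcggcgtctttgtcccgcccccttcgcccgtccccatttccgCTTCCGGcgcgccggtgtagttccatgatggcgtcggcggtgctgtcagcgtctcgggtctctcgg
Atp5j, chr16:84834927-84835226, minus strand: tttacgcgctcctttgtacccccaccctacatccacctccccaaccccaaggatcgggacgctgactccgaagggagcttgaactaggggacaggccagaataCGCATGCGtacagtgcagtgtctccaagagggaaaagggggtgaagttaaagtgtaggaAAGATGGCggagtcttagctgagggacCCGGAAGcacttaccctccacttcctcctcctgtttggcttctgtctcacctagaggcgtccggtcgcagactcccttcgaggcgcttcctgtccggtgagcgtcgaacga
Members with and without a motif had median log2 fold changes in HSCs of 0.38 and 0.35 for the NRF1 core, 0.38 and 0.35 for the ETS core and 0.36 and 0.35 for the YY1 core. In macrophages the medians were -0.93 and -0.63, -0.70 and -0.64, and -0.84 and -0.66.

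In HSCs most subunit genes had somewhat higher values in the libraries labelled Cre positive, but no member passed the test. After the filter on low counts 88 of the 98 members were tested, 81 nuclear and 7 mitochondrial. None reached an adjusted p under 0.05 in the quasi-likelihood test of edgeR (p adjusted by Benjamini and Hochberg's method over 13962 genes), where 0% of all genes were called. None was called by DESeq2 either, which called 1.01% of the 13128 genes it gave an adjusted p. At an unadjusted p under 0.05, 4 members were on the higher side (2.42% of all genes were) and 1 on the lower side (3.97% of all genes). The log2 fold change of Cre positive over Cre negative was above 0 in 76 of the 88 members, where 49.7% of all genes tested were above 0. By complex these were 33 of 37 members of complex I, 2 of 4 of complex II, 6 of 9 of complex III, 14 of 14 of complex IV, 14 of 17 of complex V and 7 of 7 encoded by mtDNA. Median log2 fold changes were 0.35, -0.17, 0.25, 0.40, 0.37 and 0.55 in that order, and -0.005 over all genes. All 3 libraries labelled Cre positive lay above all Cre negative ones in 10 members (6.37% of all genes did so) and below them in 5 (9.33% of all genes).

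**Figure D1:**
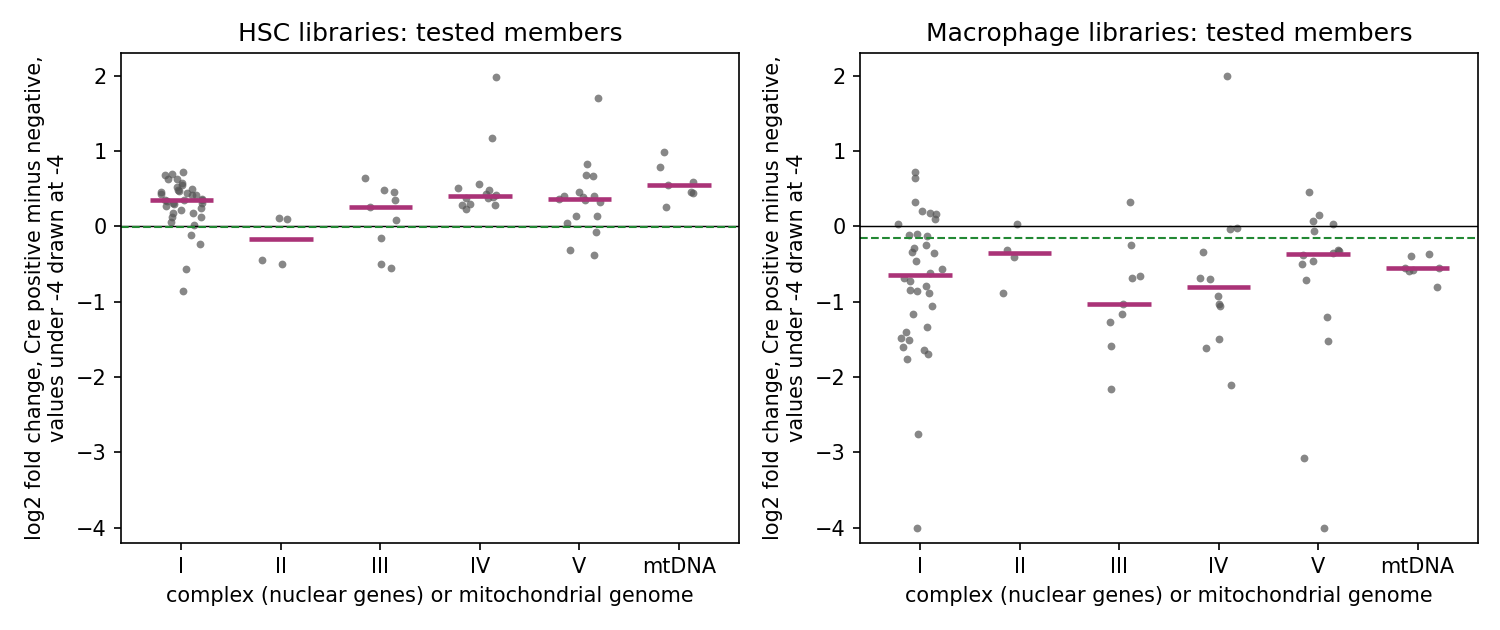
Log2 fold change of Cre positive over Cre negative libraries (vertical axis) for each tested member, by complex of the nuclear genes and for mtDNA, in HSCs and in macrophages. Points are genes, solid bars medians and the dashed line the median of all genes tested; 2 macrophage values under -4 (Ndufs5 and Atp5l) are drawn at -4. In HSCs the medians of complexes I, III, IV and V and of mtDNA lie between 0.25 and 0.55, and in macrophages all 6 medians lie below 0.

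The values in HSCs leaned on 1 library. Among the 81 tested nuclear members, Cre positive replicate 3 was the highest of the 6 libraries in 60, and Cre positive replicate 1 was the highest in 0 and the lowest in 16. Cre negative replicate 3 was the lowest in 36. Without Cre positive replicate 3 the log2 fold change was above 0 in 52 of 81 nuclear members instead of 69, and the medians were 0.02 for complex I, 0.12 for complex V and 0.29 for mtDNA. As a share of all reads, the nuclear members together took 1.87%, 1.76% and 1.65% in the controls and 1.71%, 1.89% and 2.24% in the labelled Cre positive libraries, so the groups overlapped.

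Complex I takes electrons from NADH through a flavin and a chain of iron-sulfur clusters. Ndufs1, at chr1:63143596-63176833 (GRCm38), encodes a large cluster-bearing subunit and had the smallest p of all members in HSCs. It stood at 226, 174 and 206 CPM in the controls and 130, 115 and 88.2 CPM in the labelled Cre positive libraries. The groups did not overlap, with a log2 fold change of -0.87 (SE 0.23, unadjusted p = 0.00599, adjusted p = 0.689 in edgeR). Ndufv1, which carries the flavin, stood at 345, 238 and 273 CPM against 248, 219 and 112 CPM. Its groups overlapped through the first library labelled Cre positive (log2 fold change -0.56, SE 0.32). Ndufv2, its partner in the NADH module, had a log2 fold change of -0.24 (SE 0.25), also with overlap.

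Ndufs3, Ndufs7 and Ndufs8, core subunits on the path of electrons to coenzyme Q, did not share that sign. They had log2 fold changes of 0.34, 0.43 and 0.17, each with overlap. Ndufs7 stood at 232, 209 and 227 CPM against 201, 261 and 441 CPM, and its last library was far above the other 5. Small accessory subunits carried the highest values. Ndufb7, of the membrane arm, stood at 142, 145 and 119 CPM in Cre negative and 158, 199 and 301 CPM in labelled Cre positive HSCs. Its groups did not overlap (log2 fold change 0.69, SE 0.27, unadjusted p = 0.0355, adjusted p = 0.775 in edgeR). Ndufa1, Ndufb4 and Ndufc1 had no overlap either, with log2 fold changes of 0.54, 0.63 and 0.31. Ndufa7 had 0.72 (SE 0.33, unadjusted p = 0.0595 in edgeR), with overlap. Ndufa4, whose product is now placed with complex IV, reached 430 CPM per kilobase of transcript in Cre negative HSCs, and its paralog Ndufa4l2 reached 2.90.

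Complex II, succinate dehydrogenase, is shared with the tricarboxylic acid cycle and is encoded wholly in the nucleus. Sdha, the flavoprotein subunit, stood at 734, 652 and 572 CPM in Cre negative and 571, 489 and 327 CPM in labelled Cre positive HSCs. The lowest value of the first group lay just above the highest of the second (log2 fold change -0.50, SE 0.24, unadjusted p = 0.0694, adjusted p = 0.807 in edgeR). Sdhc, a membrane anchor, stood at 161, 154 and 146 CPM against 122, 94.01 and 123 CPM. It did not overlap either (-0.44, SE 0.22). Sdhb, the iron-sulfur subunit, and Sdhd, the other anchor, overlapped, with log2 fold changes of 0.11 (SE 0.21) and 0.10 (SE 0.20). Complex II took 0.134% to 0.146% of reads in Cre negative and 0.120% to 0.130% in labelled Cre positive HSC libraries.

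Complex III hands electrons from coenzyme Q to cytochrome c. Uqcrh, at chr4:116066965-116075071, is the acidic hinge protein that helps cytochrome c dock, and its window with an ETS core is printed above. It stood at 98.1, 109 and 95.2 CPM in Cre negative and 146, 150 and 175 CPM in labelled Cre positive HSCs. All 3 of the latter were well above the former, and its p was the smallest among the members on the higher side (log2 fold change 0.64, SE 0.21, unadjusted p = 0.016, adjusted p = 0.689 in edgeR). The redox subunits differed from it: Cyc1, which carries cytochrome c1, had 0.08 (SE 0.19) and Uqcrfs1, the Rieske iron-sulfur protein, -0.56 (SE 0.36). The core proteins Uqcrc1 and Uqcrc2 had -0.16 and -0.50. Uqcrfs1 stood at 192, 177 and 128 CPM against 151, 126 and 60.7 CPM. Uqcrc2 stood at 159, 155 and 164 CPM against 104, 169 and 64.2 CPM. Both overlapped and were lowest in Cre positive replicate 3, the library that was highest for most members. Uqcrq and Uqcr10, small membrane subunits, had 0.45 (SE 0.27) and 0.48 (SE 0.33), with overlap.

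Complex IV, cytochrome c oxidase, had log2 fold changes above 0 in all 14 tested nuclear members in HSCs. Groups did not overlap in 1 of them, the small subunit gene Cox7a2, with 147, 134 and 139 CPM against 150, 177 and 291 CPM (log2 fold change 0.56, SE 0.28, unadjusted p = 0.0786 in edgeR). Cox4i1, the regulatory subunit found in most tissues, stood at 467, 388 and 290 CPM against 351, 516 and 611 CPM. The overlap was wide (0.37, SE 0.27). Cox5a and Cox5b had 0.23 (SE 0.38) and 0.38 (SE 0.25), Cox7b 0.51 (SE 0.25) and Cox8a 0.48 (SE 0.25), all with overlap. The complex IV share of reads ranged from 0.199% to 0.230% in Cre negative and from 0.220% to 0.385% in labelled Cre positive libraries.

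The tissue-specific isoforms of complex IV were low or without reads. Per kilobase of transcript in Cre negative HSCs, Cox4i1 reached 512 CPM and its isoform Cox4i2, known from lung, 4.25. Cox6a1 reached 722, and the muscle isoform Cox6a2 had 0 reads in the 6 HSC libraries, as had the muscle isoform Cox8b, the testis isoform Cox8c and Cox7b2. In an HSC library 0 reads allow up to 0.0385 to 0.056 CPM, the level of 3 reads, which covers counting error only. Cox7a2 reached 212 per kilobase, Cox7a2l, known for its part in joining complexes III and IV, 81.6, and the muscle isoform Cox7a1 0.947. The testis isoform Cox6b2 had 45.5 per kilobase beside 457 for Cox6b1. In CPM Cox6b2 stood at 16.1, 29.1 and 30.2 in Cre negative and 38.5, 41.2 and 12.3 in labelled Cre positive HSCs, with overlap. In macrophages it had 148 reads in all, none of them in a Cre positive library.

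Complex V is built from a catalytic head and a proton-driven ring. The head subunits Atp5b (beta) and Atp5a1 (alpha) had lower values in HSCs labelled Cre positive, without overlap. Atp5b had the highest level per kilobase of all nuclear members in Cre negative HSCs (1392 CPM per kilobase) and stood at 2955, 2567 and 2479 CPM against 2172, 2284 and 1987 CPM. Its log2 fold change was -0.31 (SE 0.15, unadjusted p = 0.0765, adjusted p = 0.818 in edgeR). Atp5a1 stood at 1659, 1243 and 1341 CPM against 1142, 978 and 1129 CPM (-0.39, SE 0.18). Atp5c1, the gamma stalk that turns inside the head, had 0.05 (SE 0.19) and Atp5d, the delta subunit, 0.35 (SE 0.22). Atp5e, the epsilon subunit of the same stalk, went the other way, with 74.1, 85.7 and 65.6 CPM against 94.5, 108 and 155 CPM and no overlap (0.66, SE 0.28, unadjusted p = 0.0437 in edgeR). Atp5k, a small membrane subunit, stood at 44.9, 53.5 and 47.9 CPM against 57.3, 70.3 and 132 CPM, also without overlap (0.83, SE 0.37). As a share of reads complex V took 0.657% to 0.746% in Cre negative and 0.660% to 0.722% in labelled Cre positive HSCs.

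Atp5g1, Atp5g2 and Atp5g3 encode the same mature ring subunit with different import sequences. Atp5g3 had the highest level of the 3 per kilobase in Cre negative HSCs, at 521 CPM, beside 254 for Atp5g1 and 72.5 for Atp5g2. Atp5g2, at chr15:102662864-102672352, stood at 31.3, 31.5 and 33.2 CPM in Cre negative and 34.7, 45.6 and 51.7 CPM in labelled Cre positive HSCs. The groups lay close without overlapping (log2 fold change 0.46, SE 0.35). Its transcript has 2 other annotated genes with at least 95% identity over at least 80% of its length, so its counts are uncertain where reads were split or dropped.

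**Figure D2:**
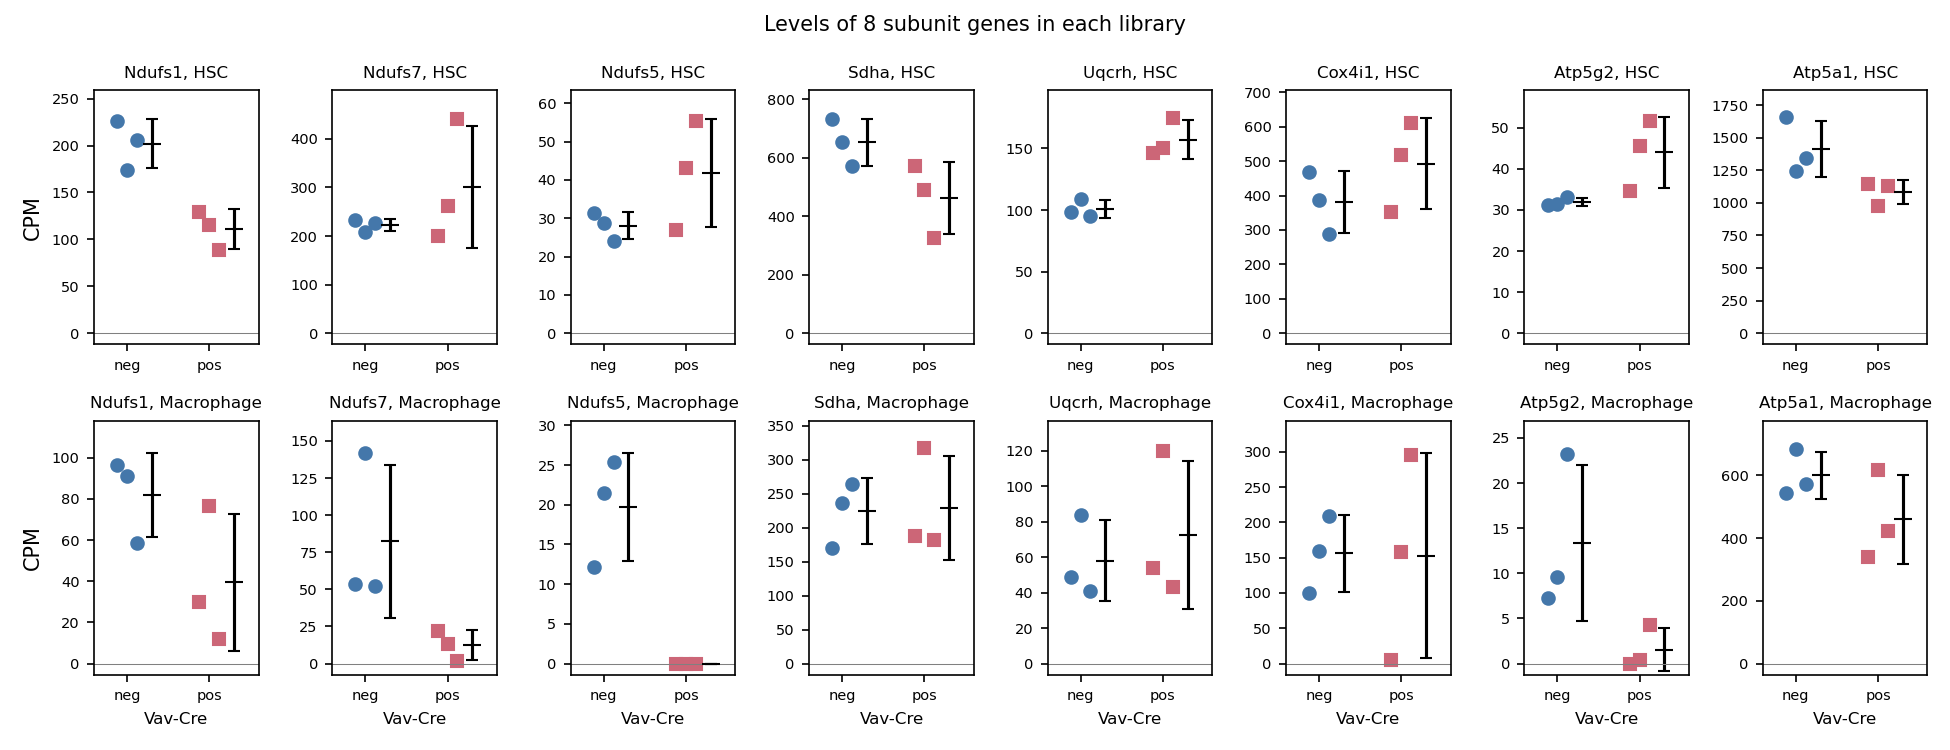
CPM (vertical axes from 0) of 8 subunit genes in the 3 Cre negative and 3 Cre positive libraries of HSCs and of macrophages; each point is a library and bars give the mean ± SD (n = 3). Ndufs1 and Sdha are lower and Uqcrh higher in every HSC library labelled Cre positive, and Ndufs5 is at 0 in the 3 Cre positive macrophage libraries.

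Of the 13 protein genes of the mitochondrial genome, 7 were counted in bulk and 6 adjacent ones were not. mt-Nd1, mt-Nd2, mt-Co1, mt-Nd4, mt-Nd5, mt-Nd6 and mt-Cytb had 41423 to 912081 reads each over the HSC libraries and 33707 to 271281 over the macrophage libraries. mt-Co2, mt-Atp8, mt-Atp6, mt-Co3, mt-Nd3 and mt-Nd4l follow each other in the genome, and all 6 had 0 reads in every macrophage library. In HSCs mt-Co2 had 304 reads and mt-Atp6 57 over 6 libraries, and the other 4 had 0. The nuclear genome holds annotated copies of this stretch on chromosome 1, between positions 24611535 and 24616197 on the minus strand, in the order of the mitochondrial genes from mt-Co1 to mt-Nd4. The copies of mt-Co2, mt-Atp6, mt-Co3 and mt-Nd4l (Gm28661, Gm10925, Gm28437 and Gm10222) had 0 mismatches over nearly the whole gene (99.9% of mt-Co3, 99.6% of mt-Co2), and that of mt-Nd3, Gm28438, had 1. The first 33 bases of mt-Nd3 and of that copy are shown because the capital, at position 3 from the first base of the gene, is their only difference there (T3C).
mt-Nd3: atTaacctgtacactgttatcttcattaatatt
Gm28438: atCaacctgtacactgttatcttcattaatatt
mt-Co1 and mt-Nd4 are covered by a copy over 31.3% and 63.6% of their length and kept reads. mt-Atp8 lies between mt-Co2 and mt-Atp6 and had no annotated copy of its own. In macrophages Gm28438 had 434 reads over 6 libraries (0.914 to 7.39 CPM) and the other 6 copies had 3 to 9 each. How reads with more than 1 place in the genome were counted is not given in the sources used here, so these zeros are not read as levels of expression.

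The 7 counted mitochondrial genes had log2 fold changes above 0 in HSCs, and none passed the test. They encode membrane subunits that move protons or electrons: mt-Nd1, mt-Nd2, mt-Nd4, mt-Nd5 and mt-Nd6 of complex I, mt-Co1, the catalytic subunit of complex IV, and mt-Cytb, which carries hemes of complex III. Per kilobase the order in Cre negative HSCs was mt-Cytb (1691 CPM), mt-Nd1 (1156), mt-Co1 (584), mt-Nd5 (205), mt-Nd2 (168), mt-Nd4 (159) and mt-Nd6 (132). A chromosome 1 copy covers 31.3% of mt-Co1 and 63.6% of mt-Nd4. If reads there were not counted, both genes stand too low in this order, which was not tested. mt-Nd5 stood at 323, 442 and 357 CPM in Cre negative and 483, 455 and 592 CPM in labelled Cre positive HSCs and was the one gene of the 7 without overlap (log2 fold change 0.45, SE 0.20, unadjusted p = 0.0552, adjusted p = 0.787 in edgeR). mt-Nd6, the one gene on the other strand, stood at 47.2, 86.8 and 71.4 CPM against 86.3, 104 and 216 CPM. Its groups touched (0.98, SE 0.41, unadjusted p = 0.044 in edgeR), and since the kit does not mark strand, reads antisense to it cannot be told apart from its own.

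The other 5 mitochondrial genes overlapped between the groups. mt-Co1 stood at 741, 1108 and 860 CPM against 1067, 1151 and 1752 CPM (0.55, SE 0.25). mt-Cytb stood at 1727, 2424 and 1651 CPM against 2281, 2130 and 3504 CPM (0.45, SE 0.25). Replicate 3 of the labelled Cre positive group was the highest library for each of the 7. mt-Nd1, mt-Nd2 and mt-Nd4 had log2 fold changes of 0.26, 0.58 and 0.79. Together the mitochondrial genes took 0.387%, 0.590% and 0.437% of reads in Cre negative and 0.573%, 0.565% and 0.860% in labelled Cre positive HSC libraries. The ratio of mitochondrially encoded to nuclear member reads was 0.207, 0.335 and 0.264 against 0.335, 0.300 and 0.384, again without a clear separation.

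**Figure D3:**
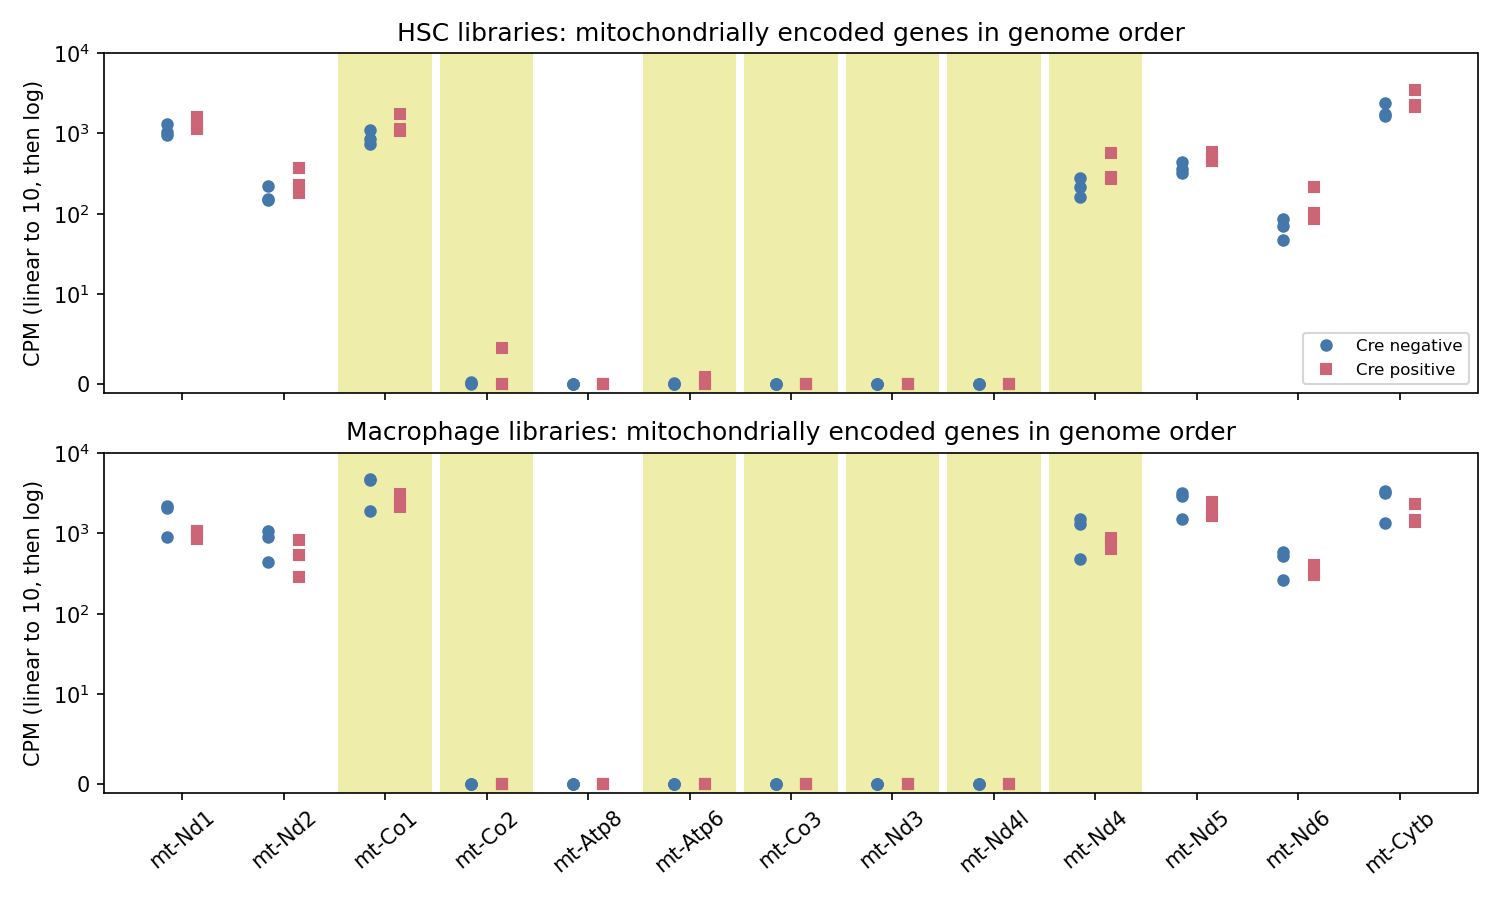
CPM of the 13 mitochondrially encoded protein genes in genome order (horizontal axis) in HSC and macrophage libraries, on an axis that is linear to 10 and logarithmic above; points are the 3 Cre negative and 3 Cre positive libraries of each sort. Shading marks genes with an annotated copy of all or part of their length on chromosome 1, and the run from mt-Co2 to mt-Nd4l is at or near 0 in both sorts.

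In macrophages the subunit genes leaned toward lower values in the Cre positive libraries. Of 98 members 84 were tested, 77 nuclear and 7 mitochondrial, and none reached an adjusted p under 0.05 in edgeR's test over 17806 genes, where 0% of all genes were called. DESeq2 called 1 member, Ndufs5 (adjusted p = 0.00309), and 0.46% of the 13271 genes it gave an adjusted p. At an unadjusted p under 0.05 in edgeR, 9 members were on the lower side (4.91% of all genes were) and 0 on the higher side (0.511% of all genes). The log2 fold change was above 0 in 15 of 84 members, where 43.9% of all genes were above 0. The counts were 8 of 36 in complex I, 1 of 4 in complex II, 1 of 9 in complex III, 1 of 12 in complex IV, 4 of 16 in complex V and 0 of 7 for mtDNA. Medians were -0.65, -0.36, -1.03, -0.81, -0.37 and -0.56 in that order, against -0.16 over all genes. They were the same with Ndufs5 and Atp5l set to their bounds, which lie below the medians of their complexes and so could not move them. All Cre positive libraries lay below all Cre negative ones in 13 members (11.8% of all genes did so) and above them in 0 (2.27% of all genes).

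Upper-quartile, relative-log and library-total scaling moved the median of all genes in macrophages to between -0.004 and 0.05, and 21 of 77 nuclear members were then above 0 under each. The TMM scaling of the main fit, started from library totals without the mitochondrial genes, left that median at -0.15 and the count at 15 of 77. TMM rescales such totals, so this run could hardly differ from the main one and does not show what the mitochondrial reads do. Depth differed with genotype: thinned to the shallowest library, reads were found for 85, 86 and 85 of the 98 members in the Cre negative libraries and 78, 83 and 74 in the Cre positive ones. Of the 74 nuclear members then tested, 18 were above 0. The nuclear share of reads was 0.520% to 0.740% in Cre negative and 0.505% to 0.551% in Cre positive macrophages, and Cre negative replicate 1, the library with the high hepatoblast share, lay inside the range of the Cre positive group. Without that library 10 of 76 nuclear members were above 0, and without Cre negative replicate 2 it was 24 of 78. In bulk samples, fewer cells of a type and less RNA per cell cannot be told apart.

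Complex I held the smallest p in macrophages. Ndufs5, at chr4:123712710-123718202, encodes a small accessory subunit on the intermembrane-space side. It had 214, 467 and 561 reads in the Cre negative macrophage libraries (12.2, 21.4 and 25.4 CPM) and 0 in each of the 3 Cre positive ones. With the Cre negative mean (19.7 CPM) set against the mean floor of 3 reads in the Cre positive libraries (0.708 CPM), it was at least 27.8-fold lower. Zeros were more frequent in these shallow libraries. Of the 77 tested nuclear members, 6, 3 and 12 were at 0 in Cre positive replicates 1, 2 and 3, and 1, 0 and 0 in the Cre negative ones. edgeR gave an unadjusted p of 0.00238 and an adjusted p of 0.773. Its exons overlap no other annotated gene. Among annotated transcripts of other genes, 0 matched its transcript with at least 95% identity over at least 80% of its length. The rest of the genome was not searched. In HSCs Ndufs5 stood at 31.3, 28.8 and 24.2 CPM against 27.02, 43.1 and 55.3 CPM, with overlap.

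The core subunit gene Ndufs7 came next by p. Its product holds the last iron-sulfur cluster before coenzyme Q, and its window carries the YY1 core. It stood at 53.3, 142 and 51.9 CPM against 21.9, 12.97 and 1.88 CPM. Its groups did not overlap (log2 fold change -2.76, SE 0.85, unadjusted p = 0.00476, adjusted p = 0.773 in edgeR). Further core subunits of complex I that overlapped were Ndufs8 at -1.64 (SE 1.01), Ndufs3 at -0.68 (SE 0.98), Ndufs1 at -1.05 (SE 0.66), Ndufv2 at -0.63 (SE 0.55) and Ndufv1 at 0.09 (SE 0.59). The accessory subunit genes Ndufb8 and Ndufs6 had no overlap either, with -1.51 (SE 0.76) and -1.34 (SE 1.19). Ndufa4 had -0.10 (SE 0.61), and Ndufa4l2 had 5 reads in all.

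Complex II in macrophages showed no separation. Sdha stood at 170, 237 and 265 CPM against 187, 317 and 183 CPM (0.03, SE 0.36), and Sdhb, Sdhc and Sdhd had -0.40, -0.89 and -0.32, each with overlap. In complex III, Uqcr11, a small subunit, stood at 24.7, 84.7 and 39.9 CPM against 22.99, 3.29 and 7.18 CPM, just without overlap (-2.17, SE 0.99, unadjusted p = 0.0421 in edgeR). Uqcrq stood at 66.6, 107 and 118 CPM against 47.7, 45.3 and 49.1 CPM, with even values in the Cre positive group and no overlap (-1.03, SE 0.51). The other members of complex III overlapped, among them Uqcrb at -1.17 (SE 0.68), Cyc1 at -1.27 (SE 0.85), Uqcrc1 at -0.66 (SE 0.75), Uqcrc2 at -0.25 (SE 1.07) and Uqcrfs1 at -0.69 (SE 0.58). Uqcrh stood at 48.96, 83.7 and 40.8 CPM against 54.1, 120 and 43.1 CPM in macrophages, with wide overlap (0.32, SE 0.58).

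In complex IV the smallest p belonged to Cox6b1, a subunit on the cytochrome c side. It stood at 83.9, 73.4 and 54.6 CPM in the Cre negative and 12.7, 35.5 and 20.5 CPM in the Cre positive macrophages, without overlap (-1.62, SE 0.68, unadjusted p = 0.0284, adjusted p = 0.773 in edgeR). Cox8a stood at 96.4, 250 and 203 CPM against 67.9, 127 and 68.6 CPM, with overlap through the second library of the Cre positive group (-1.06, SE 0.46, unadjusted p = 0.0333 in edgeR). Cox6a1 and Cox7a2l had no overlap, with -0.93 (SE 0.50) and -2.11 (SE 1.46). Cox5a, Cox5b and Cox7a2 overlapped, with -1.49 (SE 0.90), -0.68 (SE 0.42) and -1.03 (SE 1.35). Cox4i1 stood at 99.7, 159 and 209 CPM against 5.31, 158 and 295 CPM, so that the Cre positive libraries spanned the whole range and its log2 fold change of -0.03 has an SE of 1.08. Cox4i2 had 167 reads in all and a log2 fold change of 2.00 (SE 2.61). The isoforms Cox7b2 and Cox8c had 0 reads in this sort as well, Cox6a2 had 59, Cox7a1 96 and Cox8b 23.

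Complex V in macrophages had its smallest p-values among small membrane subunits. Atp5l, subunit g, had 160, 42 and 81 reads in the Cre negative libraries and 0 in every Cre positive one (unadjusted p = 0.0231 in edgeR). With the mean of the former set against the mean floor of 3 reads in the latter, it was at least 6.93-fold lower. In HSCs this gene was low too, at 4.32, 2.90 and 0.422 CPM against 4.95, 18.9 and 1.14 CPM. Atp5mpl, a small subunit by the ring, stood at 124, 305 and 224 CPM against 91.6, 51.4 and 140 CPM, with a slight overlap (-1.21, SE 0.46, unadjusted p = 0.0175 in edgeR). Atp5h, a stator subunit, had -0.71 (SE 0.40). Of the ring subunit genes, Atp5g2 stood at 7.23, 9.54 and 23.3 CPM against 0, 0.366 and 4.28 CPM, without overlap (-3.08, SE 2.17), while Atp5g1 and Atp5g3 had -1.53 (SE 1.25) and -0.47 (SE 0.51), with overlap.

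The catalytic head of complex V had like fitted values in both sorts. Atp5b stood at 652, 624 and 609 CPM against 412, 530 and 569 CPM in macrophages, without overlap, at -0.32 (SE 0.29). Atp5a1 stood at 544, 685 and 572 CPM against 339, 616 and 424 CPM, with overlap, at -0.38 (SE 0.31). The macrophage minus HSC difference was -0.03 (SE 0.31) for Atp5b and -0.01 (SE 0.36) for Atp5a1. Atp5c1, Atp5d and Atp5e had -0.07, 0.46 and -0.35 in macrophages.

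The 7 counted mitochondrial genes all had log2 fold changes below 0 in macrophages, and all overlapped between the groups. mt-Nd1 stood at 890, 2196 and 2080 CPM in Cre negative and 1084, 861 and 1000 CPM in Cre positive libraries (-0.81, SE 0.32, unadjusted p = 0.0202, adjusted p = 0.773 in edgeR). mt-Co1 stood at 1913, 4601 and 4706 CPM against 3056, 2293 and 2114 CPM (-0.59, SE 0.31). Cre negative replicate 1 set the overlap, with 0.697% of its reads in these genes beside 1.44% and 1.42% in the other 2, and 0.806% to 1.20% in the Cre positive libraries. mt-Cytb, mt-Nd2, mt-Nd4, mt-Nd5 and mt-Nd6 had log2 fold changes of -0.58, -0.56, -0.56, -0.37 and -0.39.

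The genotype difference was compared between the sorts in 1 fit over the 12 libraries. It takes 1 spread estimate per gene from all 4 groups, and its p-values depend on that shared spread. For some members, such as Ndufs5, the SE was below that of the macrophage fit alone (2.45 against 3.01). For others, such as mt-Co1, it was above (0.40 against 0.31). Of 88 members tested, 79 had a macrophage difference below that in HSCs, as had 55.8% of all 20128 genes, and the median over members was -0.998. At an unadjusted p under 0.05, 22 members had such a negative difference, as had 5.47% of all genes, and 0 members had a positive one. Ndufs5 alone passed the adjusted threshold, which 0.0696% of all genes passed, with a fitted difference of -13.33 (SE 2.45, unadjusted p = 2.68e-05, adjusted p = 0.0416 in edgeR). That fitted value rests on 3 libraries at 0 and is no bound on the fold. No member was called with relative-log scaling, where 0.0497% of all genes were. None was called when HSC Cre negative replicate 1, 2 or 3, HSC Cre positive replicate 2 or 3, or macrophage Cre negative replicate 2 or 3 was left out, where 0.0263% to 0.0745% of all genes were. Without macrophage Cre positive replicate 1, 2 and 3 the members called were 3, 5 and 3, and the share of all genes called was higher too, at 0.454%, 0.901% and 0.439%. Ndufs7 followed with -3.20 (SE 0.85, adjusted p = 0.298 in edgeR) and Cox6b1 with -1.92 (SE 0.57, adjusted p = 0.392 in edgeR). The smallest p-values of positive differences belonged to Ndufa4l2 (6.44, SE 4.18), Sdha (0.52, SE 0.44) and Ndufv1 (0.64, SE 0.61), none under 0.05.

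In signs alone, 60 of the 84 members tested in both sorts were above 0 in HSCs and below 0 in macrophages. This pattern was not counted over all genes, of which 49.7% were above 0 in HSCs and 43.9% in macrophages. A further 12 were above 0 in both, 9 below 0 in both and 3 below 0 in HSCs and above 0 in macrophages. The 12 genes of the last 2 patterns were the complex I genes Ndufc2, Ndufs1, Ndufv1 and Ndufv2, Sdha and Sdhc of complex II, Uqcrc1, Uqcrc2 and Uqcrfs1 of complex III, and Atp5a1, Atp5b and Atp5o of complex V. The tables of the sorts were made separately, so their levels are not set against each other.

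Among the nuclear members, the differences in HSCs followed transcript length. Members under 700 bases had a log2 fold change above 0 in 35 of 36 cases (median 0.44), those from 700 to under 1200 bases in 24 of 25 (median 0.35) and those of 1200 bases or longer in 10 of 20 (median -0.07). Across the 81 genes Spearman's rho of length with log2 fold change was -0.63, a description over genes that share the same 6 libraries, and it was -0.033 over 12466 protein-coding genes outside the pathway and the ribosomal proteins. In macrophages the respective values were 0.23 over 77 members and 0.10 over 14259 other genes. The short members are mostly small accessory and membrane subunits, such as Ndufb7, Uqcrh and Atp5e. Long ones include the redox, core and catalytic subunits Ndufs1, Ndufv1, Sdha, Uqcrc2, Uqcrfs1, Atp5a1 and Atp5b.

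Over genes outside the pathway rho was thus near 0, while their shares above 0 differed between the same length classes. Of the protein-coding genes that were neither members nor ribosomal protein genes, 79.6% of the 279 under 700 bases were above 0 in HSCs (median 0.47), 69.0% of those from 700 to under 1200 bases (0.23) and 44.7% of those of 1200 bases or longer (-0.08). Relative to the Cre negative mean on the log2 scale, the median of the members under 700 bases was 0.04, 0.30 and 0.90 in the libraries labelled Cre positive, and that of other genes of this length 0.21, 0.33 and 0.69. For the longest members the 3 values were -0.19, -0.11 and 0.05. Short transcripts were thus highest in Cre positive replicate 3 among members and other genes alike. The part of transcript length in the differences between groups was not tested.

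**Figure D4:**
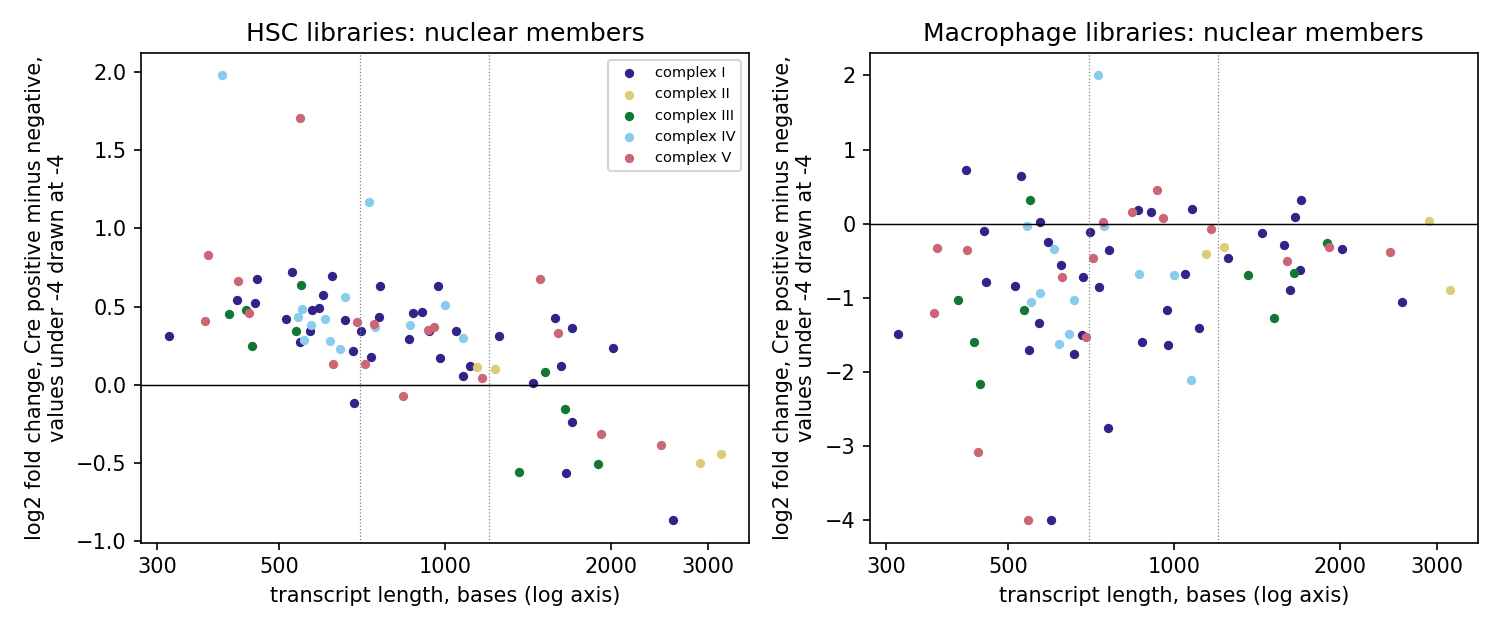
Transcript length in bases (horizontal, log axis) against log2 fold change of Cre positive over Cre negative libraries for the tested nuclear members, coloured by complex, in HSCs (81 genes) and macrophages (77 genes, with 2 under -4 drawn at -4); dotted lines mark 700 and 1200 bases. In HSCs 35 of 36 members under 700 bases lie above 0, and the lowest value, that of Ndufs1, belongs to a long transcript.

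In macrophages the order by length was another one. Members under 700 bases were above 0 in 4 of 34 cases (median -1.03), those from 700 to under 1200 bases in 8 of 24 (-0.38) and those of 1200 bases or longer in 3 of 19 (-0.38), with a rho of 0.23 over 77 genes. Among the other genes these shares were 35.2%, 37.0% and 43.5%, with medians of -0.43, -0.39 and -0.15. Cre negative replicate 1 stood apart here too, with medians of -0.59, -0.66 and -0.38 in the 3 length classes of members against 0.40, 0.42 and 0.21 in Cre negative replicate 2.

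**Figure D5:**
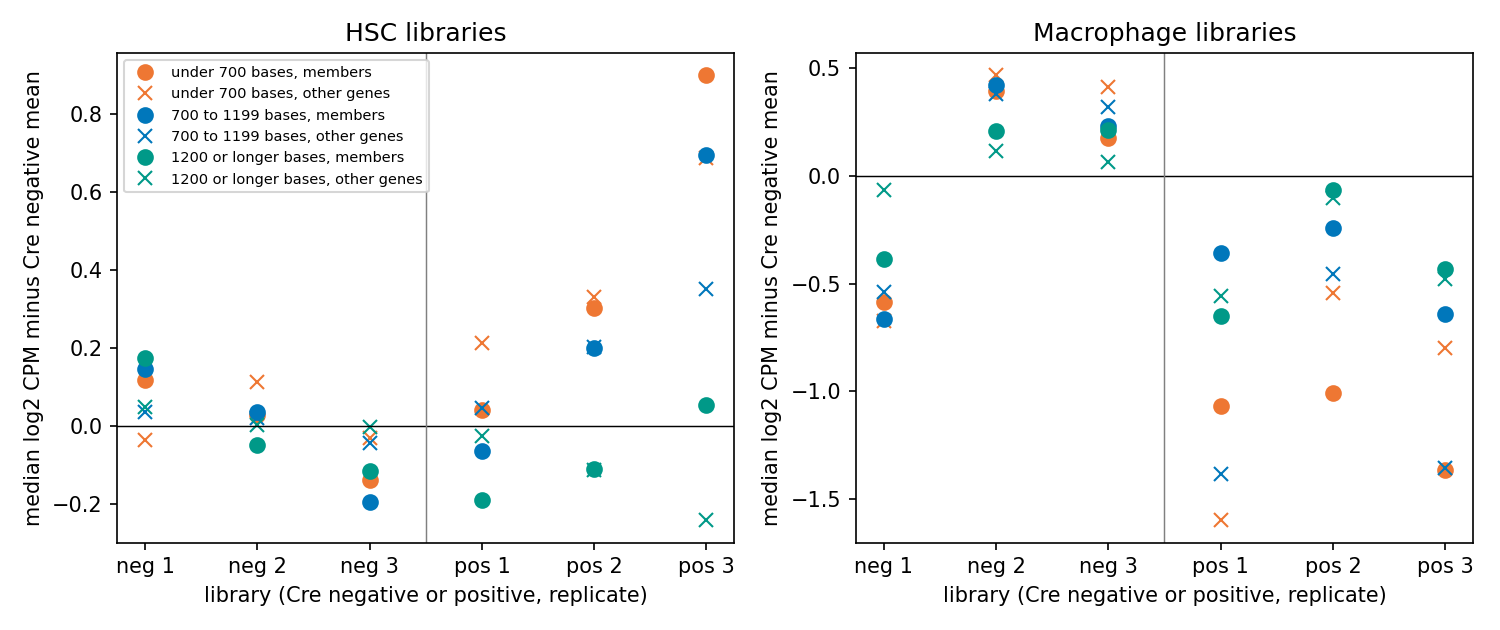
Median log2 CPM relative to the Cre negative mean (vertical axis) of nuclear members (circles) and of protein-coding genes other than members and ribosomal protein genes (crosses), by transcript length class in each of the 6 HSC and 6 macrophage libraries. Short transcripts of both sets are highest in HSC Cre positive replicate 3 (0.90 and 0.69), and the macrophage Cre negative replicate 1 lies below 0 in all 3 classes of members.

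Genes that build and serve the complexes were read from 5 lists, of which no gene passed the adjusted threshold in edgeR in either sort. Assembly factors were above 0 in 27 of 45 in HSCs (median 0.17), and 3 of the 45 had an unadjusted p under 0.05 on the higher side, as had 2.42% of all genes: Pet100, Cox14 and Coa3, which act in building complex IV. None had one on the lower side. Pet100 stood at 24.5, 24.6 and 24.6 CPM in Cre negative and 37.3, 60.3 and 44.4 CPM in labelled Cre positive HSCs, without overlap (log2 fold change 0.94, SE 0.36, adjusted p = 0.77 in edgeR). Cox14 and Coa3 had 0.73 and 0.57. In macrophages Pet100 stood at 43.6, 70.3 and 44.6 CPM against 7.43, 1.46 and 11.8 CPM, without overlap on the lower side (-2.94, SE 1.00, adjusted p = 0.773 in edgeR). Assembly factors were above 0 in 12 of 42 in macrophages (median -0.63), and 4 of the 42 had an unadjusted p under 0.05 on the lower side, as had 4.91% of all genes. Ndufaf6, a complex I assembly factor, had 0 reads in the 3 Cre positive libraries beside 6.89, 7.62 and 13.4 CPM in the Cre negative ones.

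Genes of the tricarboxylic acid cycle and pyruvate entry, which feed the chain, were above 0 in 10 of 23 in HSCs (median -0.17), and 3 of the 23 had an unadjusted p under 0.05 on the lower side (3.97% of all genes did) and 0 on the higher side. Ogdh, an enzyme of the cycle, stood at 213, 173 and 232 CPM in Cre negative and 144, 144 and 136 CPM in labelled Cre positive HSCs. The groups did not overlap (-0.55, SE 0.20, adjusted p = 0.756 in edgeR). In macrophages 8 of 23 were above 0 (median -0.44), with Mdh2 at -0.70 and Pdha1 at -1.19. Genes of cytochrome c and coenzyme Q synthesis were above 0 in 7 of 14 in HSCs (median -0.01), with Coq9 at -0.84 and Coq8a at 0.47, and in 2 of 14 in macrophages (median -0.75), with Coq3 at -2.91 and Pdss1 at -1.85.

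Among regulators of mitochondrial gene expression, 4 of 10 were above 0 in HSCs (median -0.10). An unadjusted p under 0.05 was found for 2 of the 10, both on the lower side, as for 3.97% of all genes. Hif1a, the oxygen-sensing factor known to restrain respiration, had the smallest p of the listed genes there, with 135, 122 and 129 CPM in Cre negative and 55.04, 46.8 and 52.8 CPM in labelled Cre positive HSCs. The groups were far apart and even within themselves (-1.32, SE 0.23, unadjusted p = 0.000484, adjusted p = 0.689 in edgeR). Myc, a growth regulator, stood at 346, 267 and 280 CPM against 194, 195 and 206 CPM, also without overlap (-0.59, SE 0.19, adjusted p = 0.689 in edgeR). In macrophages 5 of 10 were above 0 (median 0.03), with Nrf1 at 0.78 and Gabpa at 0.58, both with overlap. Genes of mitochondrial genome upkeep and transcription were above 0 in 6 of 14 in each sort (medians -0.01 and -0.25). In HSCs 1 on each side had an unadjusted p under 0.05, as had 2.42% of all genes on the higher and 3.97% on the lower side. In macrophages 1 had one on the lower side, as had 4.91% of all genes. No other gene of the 5 lists had an unadjusted p under 0.05 in macrophages apart from the 4 assembly factors. In HSCs Mterf3, of the mitochondrial transcription termination factor family, had 1.03 (SE 0.32) and Lrpprc, which stabilises mitochondrial messenger RNA, -1.06 (SE 0.42), both without overlap. In macrophages Mterf1a was at 0 in the 3 Cre positive libraries beside 10.4, 2.07 and 6.71 CPM in the Cre negative ones, and Tfb1m had -3.51 (SE 2.65).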

How the data were processed

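RNA was measured in 12 SMART-Seq v4 libraries, which do not mark strand, 3 in each of 4 groups. The authors deposited raw read counts per gene, 1 table per sort. Per the submitters' processing notes, STAR 2.7.6a mapped the HSC reads to GRCm38 (mm10), and Subread 2.0.1 (featureCounts) gave the counts. For macrophages the notes name mm10, with aligner and counter not given in the sources used. Gene names came from GENCODE M21, which lacks 50 of 32285 HSC and 4855 of 56980 macrophage identifiers.

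Each whole table was fitted in edgeR 4.0.16 (R 4.3.3, limma 3.58.1) with filterByExpr, TMM scaling, robust glmQLFit and glmQLFTest, and Benjamini-Hochberg adjustment over all genes tested (threshold 0.05). A fit over the 12 libraries, on identifiers in both tables, gave the difference between sorts. CPM uses TMM-scaled totals, and SE is the log2 fold change over the root of F. A floor of 3 reads covers counting error only, since amplified reads are not independent molecules. Levels of different genes are compared as CPM per kilobase of the GENCODE principal transcript. Copies were sought among annotated transcripts with blastn 2.17.0. The edgeR steps of each sort were also run on simulated counts with known fold changes, and the outcome is not reported here. DESeq2 1.42.0, other scalings, no filter, thinned reads, a replicate block and each library left out were tried.

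The members and lists were chosen with earlier results of these data known. Values are given for mitochondrial genes, catalytic and redox subunits, isoform sets, the 3 smallest p-values per complex and sort and per direction of the difference between sorts, and the 2 smallest per list and sort, apart from a few genes that are not reported here. Ndufa1, Ndufb4, Ndufc1, Ndufb8, Ndufs6, Uqcr10 and Coa3 were singled out after their values were seen.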

Additional observations from a re-analysis of the deposited data

Results flagged for a closer look

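Ndufs5 stood out because the test of the difference between sorts passed the adjusted threshold: the macrophage minus HSC difference was -13.33 (log2, adjusted p = 0.0416 in edgeR). All 3 Cre positive macrophage libraries were at 0, so the fitted size is not a fold. That test takes 1 spread per gene from both sorts. Within macrophages alone Ndufs5 had an adjusted p of 0.773 in edgeR. Atp5g2 stood out because every HSC library labelled Cre positive lay above the Cre negative ones (log2 fold change 0.46) and every Cre positive macrophage library below them (-3.08). The difference between these effects was -3.53 (SE 1.63, unadjusted p = 0.0422, adjusted p = 0.569 in edgeR), which does not pass the threshold. Some of the Cre positive macrophage values of Atp5g2, given above, were below the level of 3 reads. Its transcript also has 2 close annotated copies, so its counts are uncertain where reads were split or dropped.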

How the results depend on the processing

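No member was called in HSCs under any alternative run, of which DESeq2 called 133 of 13128 genes and the others 0. In macrophages DESeq2 called 1 member (Ndufs5, log2 fold change -8.70, adjusted p = 0.00309) and 61 of 13271 genes, and the other alternatives called 0 members and 0 to 34 genes in all. In the difference between sorts 1 member was called (14 of 20128 genes), 0 with relative-log scaling (10 genes), 2 without the filter (107 of 28630 genes) and 0 to 5 with each library left out (6 to 210 genes). Over the libraries left out, the HSC medians ranged from 0.02 to 0.52 in complex I, from 0.12 to 0.50 in complex V and from 0.29 to 0.76 for mtDNA, lowest in each case without Cre positive replicate 3. The count of macrophage nuclear members above 0 ranged from 10 to 24. These counts above 0 were added after the data were seen. With a library left out, the log2 fold change of Sdhb ranged from -0.038 (without Cre positive replicate 3) to 0.24 in HSCs, and from -1.01 to 0.085 in macrophages, above 0 without Cre negative replicate 2 or Cre positive replicate 1 (0.065). That of Sdhd in macrophages ranged from -1.27 to 0.057, above 0 without Cre negative replicate 2 (0.038) or Cre positive replicate 2. The cause was not tested. Deviations of libraries of the same number had correlations near 0, with 0.021, 0 and -0.001 in HSCs and 0.037, 0.008 and 0.021 in macrophages. Between unlike numbers they ranged from -0.031 to 0.024 in HSCs and from -0.032 to 0.011 in macrophages. The labels do not say whether libraries of the same number were paired, and these values cannot decide it. With a replicate block 3 members were called in the difference between sorts (96 of 20128 genes), and 0 within either sort, where 0 of 13962 genes were called in HSCs and 13 of 17806 in macrophages. With it 69 HSC and 10 macrophage nuclear members were above 0. Shallow Cre positive macrophage libraries limit that sort, where 3 reads are 0.513 to 1.06 CPM.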
